A study of Mus musculus with 6 samples.

Results

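The genes described here are 10 members of the Notch pathway, taken by symbol from a count table of 41079 genes: the receptors Notch1, Notch2, Notch3 and Notch4, the ligands Jag1, Jag2 and Dll1, the nuclear mediator Rbpj, and the target genes Hes1 and Hey1. The set was chosen by the log2 difference of Notch4 between the 2 culture conditions, which was among the largest rises, and the other members by their place in the pathway with the same comparison known, so the members' differences between conditions are given below as a description with no p-value. Microglia, the resident macrophages of the brain, were obtained from C57Bl/6N mouse pups aged 1 to 3 days, grown on mixed flasks with conditioned medium of L-929 cells and shaken off. RNA was sequenced from 3 libraries of control cells, kept in serum-free DMEM/F12, and from 3 libraries of cells under the optimized conditions. Per the labels the optimized cells received human TGFbeta and human IL34 and CX3CL1 at 100 ng/mL each, and the study's methods add cholesterol, insulin-transferrin-selenium and a collagen IV coating, so the cytokines and these additions cannot be told apart. Each flask was seeded from several pooled brains, and the age of the cultures at RNA isolation is not given in the sources used here. The study describes the 3 libraries of a condition as biological replicates, while the labels do not say whether they came from separate pups or flasks.

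Notch receptors are single-pass membrane proteins that bind Jagged and Delta-like ligands on a neighbouring cell. After ligand binding the receptor is cut by ADAM proteases and then by gamma-secretase, and the freed intracellular domain enters the nucleus, where it joins RBPJ and Mastermind proteins on DNA. RBPJ without Notch can hold the same genes silent, and the HES and HEY repressors are the classical targets. In the vasculature NOTCH4 is known as a receptor of endothelial cells and NOTCH3 as a receptor of pericytes and smooth muscle cells.

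The stretches in front of Notch4 and of the target Hes1 are shown because these genes had the largest positive differences among the 10. They were read from the mouse genome GRCm39, the build of the files, on the coding strand and end at the base before the annotated transcript start (GENCODE M39). Capitals mark the core of the RBPJ motif, TGGGAA. A core on the other strand was searched as TTCCCA, which is how it reads on the coding strand.
Notch4, chr17:34782970-34783219, plus strand: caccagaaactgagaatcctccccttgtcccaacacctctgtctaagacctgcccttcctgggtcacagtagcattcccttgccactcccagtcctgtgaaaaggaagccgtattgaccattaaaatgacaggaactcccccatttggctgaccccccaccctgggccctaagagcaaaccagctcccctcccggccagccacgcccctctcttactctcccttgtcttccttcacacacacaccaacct
Hes1, chr16:29883877-29884126, plus strand: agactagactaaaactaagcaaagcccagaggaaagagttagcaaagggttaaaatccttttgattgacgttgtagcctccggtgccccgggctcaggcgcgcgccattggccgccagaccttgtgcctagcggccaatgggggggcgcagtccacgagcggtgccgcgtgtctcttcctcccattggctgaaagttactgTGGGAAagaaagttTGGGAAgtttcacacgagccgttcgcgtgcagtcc
The 250 bases of Hes1 held the core 2 times on the coding strand, at 49 to 44 and at 35 to 30 bases before the start. Of 21018 windows of 250 bases in front of protein-coding genes, 4795 (22.8%) held at least 1 core and 644 (3.06%) held 2 or more. The window of Rbpj held 1 core, which lies within its own annotated exons. The windows of all 4 receptors and all 3 ligands held none, and that of Hey1 is not reported here. The SMAD box, CAGAC or GTCTG, was in 8686 of the windows (41.3%) and in those of Notch2, Notch3 and Hes1 among the members, but not in that of Notch4. The 2 motifs shared no bases, and these matches describe the letters of the windows only.

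Library totals ran from 20628148 to 27261839 counts. In the comparison over all genes, 14618 genes had enough counts to be tested and 4360 (29.8%) were called at an adjusted p under 0.05 (edgeR quasi-likelihood test), of which 2142 (14.7%) were higher and 2218 (15.2%) lower under the optimized conditions. The higher genes were thus 49.1% of the calls, and 32.3% with library size as the only scaling. The microglial markers were present throughout: 9 listed genes summed to between 8511 and 9176 CPM (counts scaled to library size with TMM factors) in the control and to between 14071 and 18228 CPM in the optimized libraries. Some optimized libraries stood apart in genes of other cell types. Optimized library 1 held 145 counts of Myh11, 63 of Des and 37 of Rgs5, genes of smooth muscle cells and pericytes. The other 5 libraries held at most 4 counts of any of them. Optimized library 3 held 1488 counts of the fibroblast gene Col3a1, which was present in all libraries, with 211 to 573 counts in the other 5. In bulk RNA a change in the share of a cell type and a change in RNA per cell cannot be told apart.

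Of the 10 members, 9 had enough counts and Notch3 did not. Notch4, Jag2, Hes1 and Hey1 met the call as higher, beside 14.7% of all genes tested, Rbpj met it as lower, beside 15.2%, and Notch1, Notch2, Jag1 and Dll1 did not meet it. In 4 of the 9 all optimized libraries were above all control libraries, beside 21.4% of all genes tested, and in 1 they were below, beside 22.5%. Since the members were picked with this contrast known, nothing is read from these counts. The number called lower was 2 without control library 3 and 3 without optimized library 1. Hes1 reached the count minimum through the optimized libraries, as one control library lay under it. The median log2 difference over the 9 was 0.04, and that over all genes tested was 0.01.

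**Figure D1:**
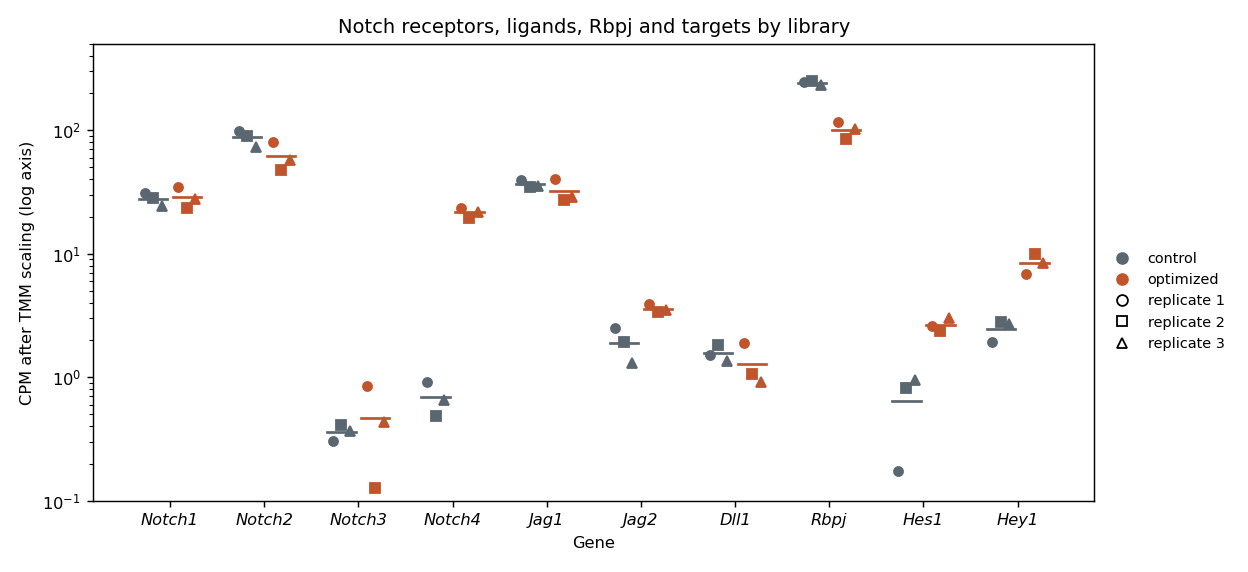
Level of each of the 10 genes in each library, in CPM on a log axis, with control libraries in grey, optimized libraries in red, a symbol for each replicate and short lines for the condition means. Notch4, Hes1, Hey1 and Jag2 lie higher in all 3 optimized libraries than in any control library, Rbpj lies lower, and the libraries of the other 5 genes overlap.

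The 4 receptors took different courses. Notch4 (chr17:34783220-34807477, plus strand) was read by 21, 12 and 18 counts under control and by 498, 460 and 452 counts under optimized conditions, which is 0.917, 0.489 and 0.658 CPM against 23.5, 19.6 and 21.8 CPM. All 3 optimized libraries were above every control library by a wide margin and lay close to each other. The mean went from 0.688 ± 0.216 (SD, n = 3) to 21.7 ± 1.99 CPM (SD, n = 3), a log2 difference of 4.97 (SE 0.20) or 31.4-fold, at rank 18 of the 14618 genes from the most positive difference down. Leaving out 1 library at a time kept it between 4.78 and 5.21. No annotated exon of another gene overlapped those of Notch4. Because the control rests on 12 to 21 counts a library, the fold carries the error of these low counts.

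Notch2 (chr3:97920800-98057677, plus strand), the most abundant receptor, had 99.6, 90.4 and 73.8 CPM in the control and 80.5, 47.9 and 57.5 CPM in the optimized libraries. The groups overlapped, because optimized library 1 lay above control library 3. The means were 87.9 ± 13.1 and 62.0 ± 16.8 CPM (SD, n = 3), with a log2 difference of -0.50 (SE 0.18) that did not meet the call. It met it in 5 of 15 other analyses, among them those without control library 3 and without optimized library 1, where the log2 difference was -0.74.

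Notch1 (chr2:26347915-26406675, minus strand) had 30.8, 28.3 and 24.5 CPM in the control and 34.5, 23.6 and 28.0 CPM in the optimized libraries. The groups overlapped, with means of 27.9 ± 3.15 and 28.7 ± 5.48 CPM (SD, n = 3) and a log2 difference of 0.04 (SE 0.15). Its sign was positive in 9 of 15 other analyses and turned negative with library size as the only scaling. Of its 14232 exon bases, 1996 are shared with 0610009E02Rik on the other strand. Notch3 (chr17:32339794-32385893, minus strand) was near the floor, with 7, 10 and 10 counts in the control and 18, 3 and 9 counts in the optimized libraries. Its highest value was in optimized library 1, the library with the counts of Myh11, Des and Rgs5, and whether these go together was not tested.

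Per length the make-up of the receptor transcripts differed between the conditions. The deposited FPKM values, which are scaled to gene length and library depth, were summed over the 4 receptors in each library. The sum was 13.4, 12.2 and 9.50 FPKM in the control and 14.0, 8.63 and 10.8 FPKM in the optimized libraries, so the sums overlapped. Notch4 made up 0.997, 0.586 and 0.947% of the sum under control and 22.4, 28.0 and 26.5% under optimized conditions. Notch2 went from 73.0 ± 0.837% to 48.7 ± 3.01% (SD, n = 3) in the same sums, whereas Notch1 made up 25.7 ± 0.708% and 25.2 ± 0.434%. With CPM divided by the annotated exon length, an alternative chosen after the data had been seen, the share of Notch4 was 0.787% in the control and 24.8% in the optimized libraries on average. A rise in the share of one receptor lowers the shares of the others, so the shares are not separate measurements.

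**Figure D2:**
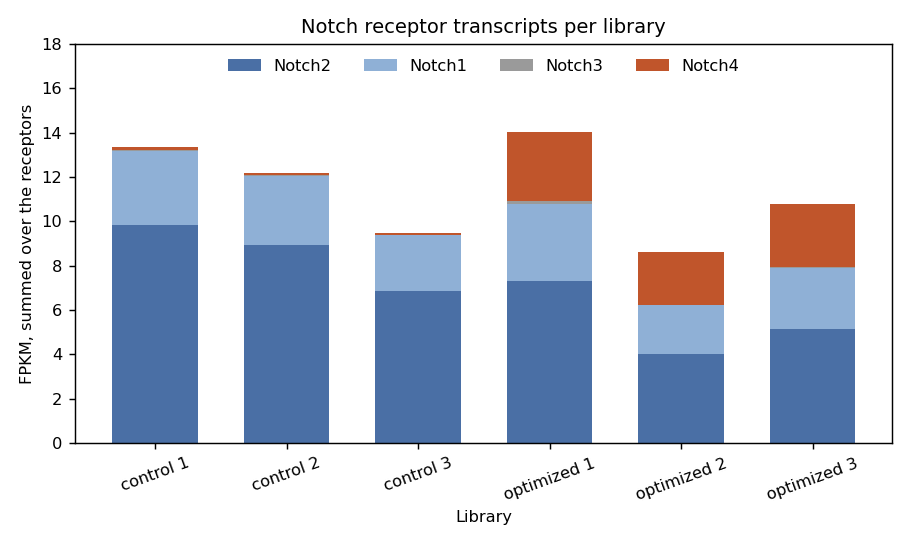
Receptor transcripts per library in FPKM, stacked by receptor, for the 3 control and the 3 optimized libraries. Notch4 is barely visible in the control libraries and takes 22.4 to 28.0% of the stack in the optimized libraries, while the heights of the stacks overlap between conditions.

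Among the ligands Jag1 was the most abundant and Jag2 was the one that differed. Jag2 (chr12:112871421-112893437, minus strand) had 57, 47 and 36 counts in the control and 83, 79 and 72 counts in the optimized libraries. In CPM this was 2.49, 1.92 and 1.32 against 3.92, 3.36 and 3.48, so all optimized libraries lay above the control libraries. The log2 difference was 0.92 (SE 0.26), 1.89-fold on 1.91 ± 0.587 CPM (SD, n = 3), and it met the call in 9 of 14 other analyses. It missed it without control library 2 (log2 difference 0.92), control library 3 (0.70) or optimized library 3 (0.94), with library size as the only scaling (0.79) and on one FPKM scale.

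Jag1 (chr2:136923373-136958693, minus strand) had 39.4, 34.5 and 35.6 CPM in the control and 40.2, 27.4 and 28.7 CPM in the optimized libraries. Optimized library 1 held the highest value of all 6, and the groups overlapped, with a log2 difference of -0.18 (SE 0.15). Without that library the difference was -0.38 and met the call. Dll1 (chr17:15587276-15597134, minus strand) had 1.53, 1.83 and 1.35 CPM in the control and 1.89, 1.06 and 0.918 CPM in the optimized libraries, with a log2 difference of -0.28 (SE 0.34). Of its 4960 exon bases, 1369 are shared with Fam120b on the other strand, which had 4632 counts against 201 for Dll1, and the strand setting of the counting is not given in the sources used here, so its level is uncertain. Of the summed ligand FPKM, Jag1 made up 80.8% in the control and 73.1% in the optimized libraries, and Jag2 made up 9.50 ± 2.23% and 18.9 ± 2.18% (SD, n = 3). With CPM per kilobase of annotated exons, also chosen after the data had been seen, Jag1 made up 91.3% and 87.5% and Jag2 3.97% and 8.37%.

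Among the 10 members, the mediator Rbpj was lower and the targets Hes1 and Hey1 were higher under the optimized conditions. Further targets, given below, did not all go with Hes1 and Hey1. Rbpj (chr5:53623494-53814704, plus strand), which encodes the DNA-binding partner of all Notch receptors, had 244, 249 and 231 CPM in the control and 116, 85.4 and 102 CPM in the optimized libraries. Every optimized library was below every control library. The mean was 241 ± 8.96 CPM in the control and 101 ± 15.5 CPM in the optimized libraries (SD, n = 3), a log2 difference of -1.25 (SE 0.11), and it met the call in all 15 other analyses. Rbpj rests on the deepest counts of the 10 genes, 2007 to 6323 a library. Processed pseudogenes of Rbpj are annotated, and how reads that fit several places were counted is not given in the sources used here.

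Hes1 (chr16:29882134-29886643, plus strand), a basic helix-loop-helix repressor and the gene with 2 RBPJ cores in the sequence above, had 4, 20 and 26 counts in the control and 55, 56 and 62 counts in the optimized libraries. In CPM this was 0.175, 0.815 and 0.951 against 2.60, 2.38 and 3.00, so the groups did not overlap and control library 1 was far below the other control libraries. The log2 difference was 2.01 (SE 0.44), or 4.01-fold, and 1.58 without control library 1. It met the call in all 13 other analyses that gave a value.

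Hey1 (chr3:8726956-8732385, minus strand), of the related HEY family, had 44, 69 and 74 counts in the control and 145, 234 and 174 counts in the optimized libraries, or 1.92, 2.81 and 2.71 against 6.85, 9.96 and 8.41 CPM. The lowest optimized library exceeded the highest control library. The means were 2.48 ± 0.486 and 8.41 ± 1.55 CPM (SD, n = 3), with a log2 difference of 1.76 (SE 0.21) or 3.38-fold. The difference stayed between 1.60 and 1.88 when any 1 library was left out.

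Set side by side in FPKM, the order of levels in the control was led by Notch2 (8.54 ± 1.53, SD, n = 3) and Rbpj (8.50 ± 0.617), whose libraries overlapped. Jag1 (3.17) and Notch1 (3.00) followed and overlapped each other, then Hey1 (1.05), then Hes1, Dll1 and Jag2, whose neighbouring values were not separated, and Notch4 (0.0981) and Notch3 (0.044) were last. In the optimized libraries Notch2 (5.49 ± 1.68) was again at the top. Rbpj (3.25), Hey1 (3.21), Notch4 (2.81), Notch1 (2.81) and Jag1 (2.54) formed a run in which each overlapped its neighbour, and Hes1 (1.46), Jag2 (0.645), Dll1 and Notch3 followed. The places of Rbpj and Jag1 in this order depend on the gene length. With CPM per kilobase of annotated exons Rbpj had the highest mean in both conditions, at 18.8 and 7.88. In the optimized libraries its values overlapped those of Notch2. On that scale Jag1 (6.12) overlapped Notch2 in the control and lay apart from Notch1 (1.96). In the optimized libraries Jag1 (5.39) again overlapped Notch2 and lay apart from Notch4 (2.45).

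The other genes of the pathway, 61 listed by role, were counted in the same comparison of 14618 genes with edgeR and Benjamini-Hochberg adjustment. Of these, 52 had enough counts, 14 rose (14.7% of all genes did), 11 fell (15.2%) and 27 did not pass, so that 48.1% were called beside 29.8% of all genes. Among genes of at least 10 CPM the shares were 48.9% and 34.2%. The list was drawn up by role but with earlier results of these data known, so nothing about the pathway is read from these shares. The adjusted p-values below are those of single genes. The median log2 difference of the 52 was 0.07. Without control library 1, 2 or 3 the number that fell was 7, 7 and 6. The 9 with too few counts include the ligands Dll3 and Dll4 and the targets Hes5, Hey2, Heyl and Nrarp. Of the 25 called genes, 16 kept the call in every other analysis that gave a value and 9 lost it in at least 1, and 8 of these 9 are given apart below.

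Of the 8 genes that act on receptor sugars, 2 rose, 2 fell and 4 did not pass. The Fringe enzymes, which lengthen O-fucose on the receptors and thereby change which ligands they answer, moved in opposite directions. Mfng rose from 17.1 ± 1.20 to 40.1 ± 5.07 CPM (SD, n = 3; log2 difference 1.23, SE 0.12, edgeR adjusted p = 3.2e-05). Lfng fell from 49.8 ± 2.67 to 29.7 ± 2.93 CPM (log2 difference -0.74, SE 0.10, edgeR adjusted p = 0.00032), and Rfng had a log2 difference of -0.0028 and did not pass. Eogt, which adds N-acetylglucosamine to the extracellular repeats of Notch proteins, rose from 18.3 to 29.5 CPM (edgeR adjusted p = 0.0015).

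Of the 10 genes of receptor cleavage, 3 rose, 2 fell and 5 did not pass. The convertase Furin, which cuts the receptor on its way to the surface, rose from 97.6 ± 8.79 to 209 ± 7.49 CPM (SD, n = 3; log2 difference 1.10, SE 0.09, edgeR adjusted p = 1.3e-05). Adam10, the sheddase of ligand-bound Notch, rose from 144 ± 7.89 to 275 ± 16.0 CPM (log2 difference 0.94, SE 0.09, edgeR adjusted p = 2.5e-05), whereas the related Adam17 did not pass, with a log2 difference of -0.17. Of gamma-secretase, Ncstn rose from 218 to 343 CPM (log2 difference 0.66, edgeR adjusted p = 0.00019) and Aph1c fell from 46.4 to 32.5 CPM (log2 difference -0.51, edgeR adjusted p = 0.0021). The catalytic subunit Psen2 did not pass, with a log2 difference of -0.075. Exons of Ncstn overlap those of Copa, so its counts may hold reads of that gene.

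**Figure D3:**
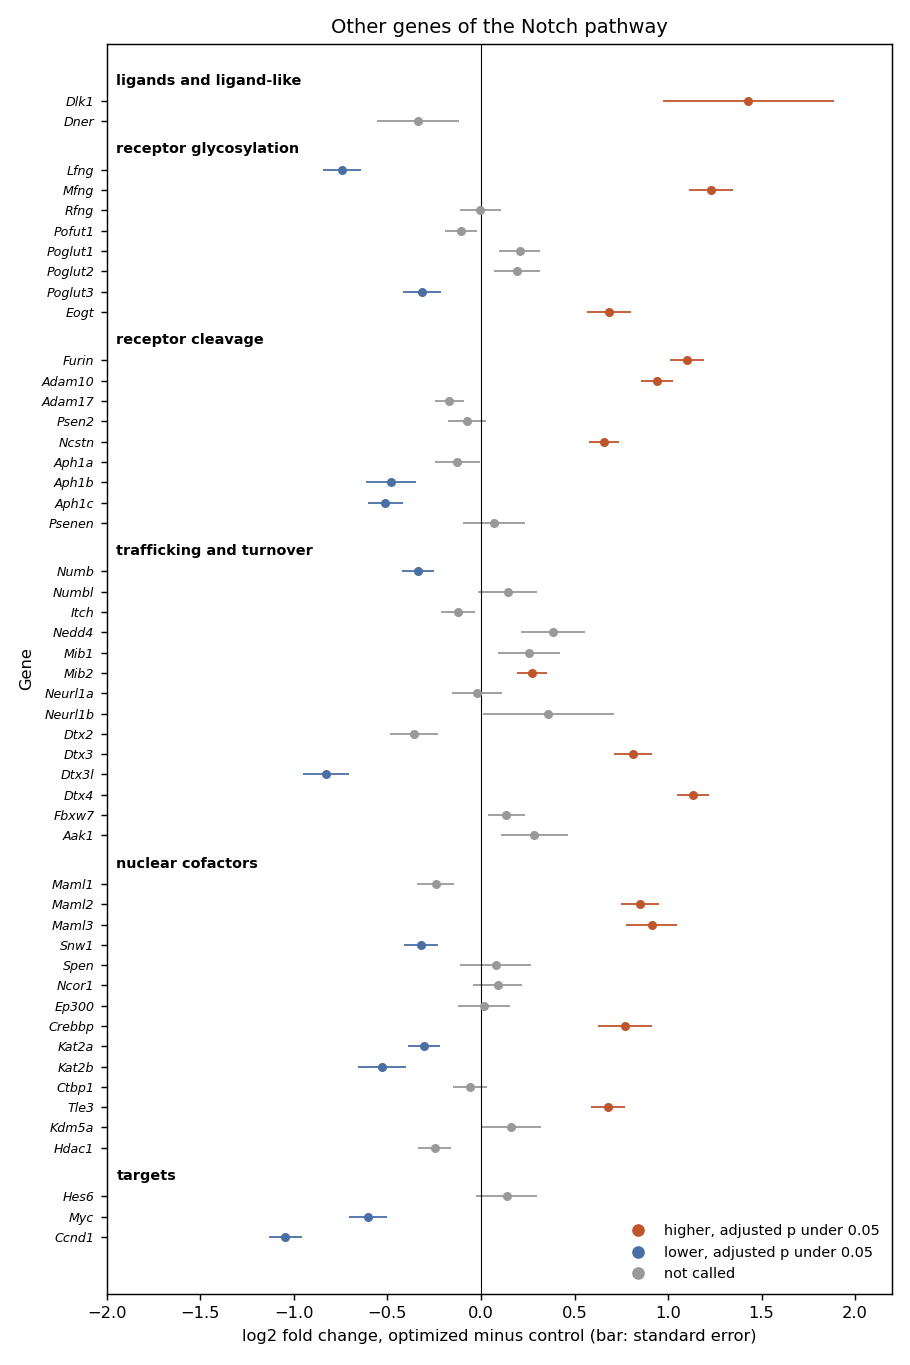
Log2 difference (optimized minus control) of the other pathway genes with enough counts, by role, with bars of 1 SE, leaving out genes not reported here. Red and blue points are genes called higher and lower by edgeR and grey points were not called; Dlk1 (1.43) has the highest value with the widest bar and Ccnd1 (-1.05) the lowest.

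Of the 14 genes of trafficking and turnover, 3 rose and 2 fell. In the Deltex family of ubiquitin ligases, Dtx4 rose from 71.0 ± 2.68 to 156 ± 11.2 CPM (SD, n = 3; log2 difference 1.13, SE 0.09, edgeR adjusted p = 7.3e-06) and Dtx3 rose from 43.1 to 75.8 CPM (log2 difference 0.81, edgeR adjusted p = 0.00019). Dtx3l fell from 100.0 to 56.3 CPM (log2 difference -0.83, edgeR adjusted p = 0.00062), and 458 of its 5725 exon bases are shared with Parp9 on the other strand.

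Of the 15 nuclear cofactors, 5 rose, 3 fell and 7 did not pass. Of the Mastermind coactivators, Maml2 rose from 19.5 to 35.1 CPM (log2 difference 0.85, edgeR adjusted p = 0.00013) and Maml3 from 10.8 to 20.3 CPM (0.91, edgeR adjusted p = 0.00061), while Maml1 had a log2 difference of -0.24 and did not pass. The acetyltransferase Crebbp rose from 64.0 to 109 CPM (0.77, edgeR adjusted p = 0.0025), and the corepressor Tle3 rose from 22.1 to 35.4 CPM (0.68, edgeR adjusted p = 0.0003). Coactivators and corepressors were thus both among the genes that rose.

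Of the 9 further target genes, 3 had enough counts, and 2 of those fell. Ccnd1, which encodes cyclin D1, fell from 260 ± 18.1 to 126 ± 5.45 CPM (SD, n = 3; log2 difference -1.05, SE 0.09, edgeR adjusted p = 1.3e-05), although 2315 of its 4783 exon bases are shared with LTO1. Myc fell from 26.9 to 17.7 CPM (log2 difference -0.60, edgeR adjusted p = 0.0013). Both genes are known to answer to many other signals. Hes6, of the same family as Hes1, had a log2 difference of 0.14 and did not pass. The classical targets Hes5, with 0, 1 and 0 counts in the control and 1, 6 and 1 in the optimized libraries, and Heyl and Nrarp, with at most 2 counts in any library, were too low to compare, so no change was detectable at this depth.

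These 8 calls were small or rested on few counts, and leaving out at least 1 library ended each, with a highest edgeR adjusted p between 0.053 (Kat2b) and 0.14 (Dlk1). The Notch-binding Dlk1, which reached the count minimum only through the optimized libraries (9, 8 and 29 counts against 41, 27 and 38), had to be high there to be tested at all. It rose from 0.593 to 1.64 CPM (log2 difference 1.43, edgeR adjusted p = 0.040) and lost the call without control library 1 or 2 or optimized library 1 or 3. With library size as the only scaling it lost the call too. Without control library 2 its log2 difference was 1.14 with an edgeR adjusted p of 0.14. Mib2 (0.27) lost it without any 1 library but optimized library 1, without a count filter (0.25), with library size as the only scaling (0.14) and on all 3 FPKM scales (0.13). Numb (-0.34) lost it without control library 2 or 3 and Kat2b (-0.53) without control library 2. Snw1 (-0.32), which shares 3050 of its 6615 exon bases with Slirp, lost it without any 1 control library. Aph1b (-0.48) lost it without control library 1 or 3 or optimized library 3, Poglut3 (-0.32) without any 1 control library or optimized library 2 and with DESeq2, and Kat2a (-0.30) without control library 1 or 3 or optimized library 2 or 3.

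Because Notch4 is known from endothelial cells, the endothelial markers were read beside it. The 11 listed genes summed to between 92.2 and 112 CPM in the control and between 318 and 403 CPM in the optimized libraries. Of these, 6 had enough counts, and 3 of them, Flt1, Vwf and Egfl7, rose, beside 14.7% of all genes tested. Flt1 went from 82.9 to 298 CPM, most of the sum, and Vwf from 12.1 to 43.4 CPM. Egfl7, with 7, 6 and 15 counts against 18, 39 and 19, reached the count minimum only through the optimized libraries. Kdr had 2.45, 2.69 and 2.63 CPM in the control and 2.98, 2.94 and 3.38 CPM in the optimized libraries, so its groups did not overlap, but it did not pass the test (log2 difference 0.26, SE 0.19). Pecam1 and Cdh5 were low and their groups overlapped: Pecam1 had 9, 20 and 6 counts in the control and 15, 20 and 5 in the optimized libraries, and Cdh5 had 29, 32 and 51 against 34, 23 and 55. Cldn5 was at 0 in 5 libraries, with 2 counts in optimized library 1. Emcn (21 counts), Esam (14 counts) and Tie1 (10 counts) were highest in optimized library 1, with at most 1 count in optimized libraries 2 and 3. Tek had 7 counts in control library 1, 1 count in optimized library 1 and 0 in the rest. The part of endothelial RNA in the level of Notch4 was not tested. The pericyte and smooth muscle list of 8 genes summed to between 11.2 and 12.7 CPM in the control and between 10.1 and 32.9 CPM in the optimized libraries, the highest in optimized library 1. The summed ranges in control and optimized libraries were 37.7 to 41.4 and 29.0 to 33.9 CPM for 8 astrocyte genes. Among these Aldh1l1 alone was called, as lower (log2 difference -1.83). Slc1a3 and Slc1a2 also lay lower in all optimized libraries, and Sox9 and Gja1 lay higher, without passing. The astrocyte sum thus hides genes that went opposite ways. For 6 neuronal genes the ranges were 3.07 to 4.72 and 5.29 to 6.33 CPM. Nefl alone of these was called, as higher and on few counts (4, 7 and 6 against 19, 35 and 21). Nefl reached the count minimum only through the optimized libraries, so it had to be high there to be tested at all. Tubb3 lay higher in all optimized libraries without passing, while Map2 and Rbfox3 overlapped between conditions. The ranges were 40.6 to 51.9 and 56.2 to 65.5 CPM for 6 genes of the oligodendrocyte lineage. For 5 fibroblast genes they were 31.8 to 45.7 and 28.6 to 146 CPM.

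**Figure D4:**
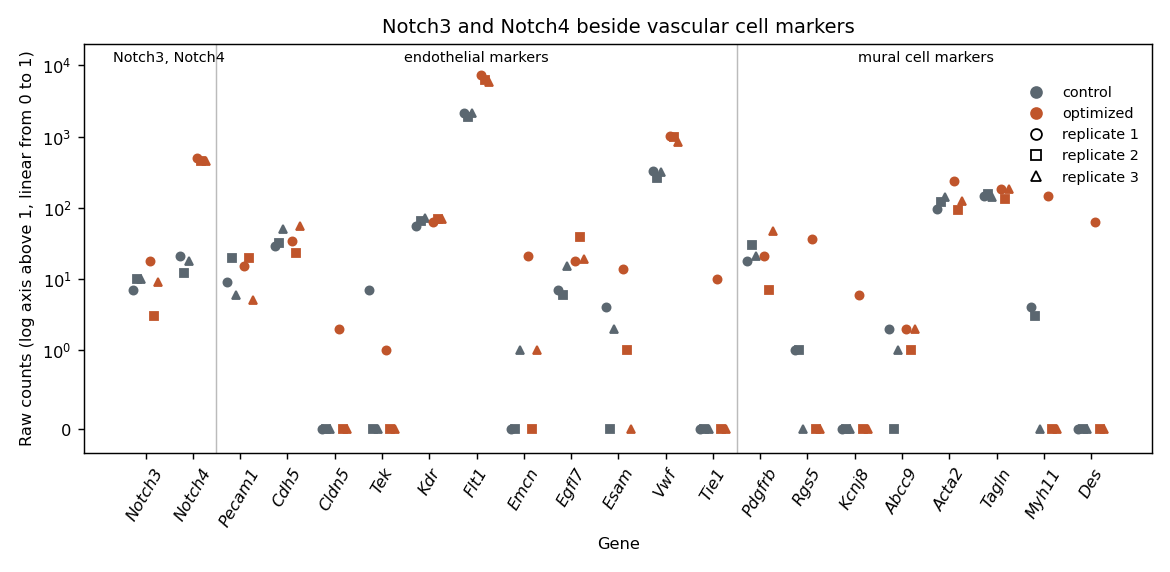
Counts per library of Notch4 and Notch3 beside vascular marker genes, on an axis that is logarithmic above 1 and linear from 0 to 1, for the 3 control and 3 optimized libraries. Notch4 lies at 452 to 498 counts in every optimized library, whereas Myh11, Des and Rgs5 are high in optimized library 1 alone and Pecam1 and Cdh5 overlap between conditions.

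The genes with the pattern most like that of Notch4 were sought among 13177 genes of at least 1 CPM, by the root mean square difference of log2 CPM centred over the 6 libraries. Gcnt2, a glycosyltransferase gene, was nearest at 0.30, with 2.58 CPM in the control and 84.3 CPM in the optimized libraries. Siglecf (0.32), a sialic-acid receptor gene, had 0.236 and 7.75 CPM, and Pmepa1 (0.34), a membrane adaptor gene known to respond to TGFbeta, had 16.1 and 379 CPM. Siglecf reached the count minimum only through the optimized libraries, so it had to be high there to be compared at all. A730081D07Rik (0.34) and Mrc2 (0.35), a mannose receptor family gene with 1.42 and 25.8 CPM, completed the 5. With 2 conditions of 3 libraries, this likeness is mainly a like-sized difference between conditions.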

How the data were processed

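RNA-seq libraries of 3 control and 3 optimized microglia cultures were used. HISAT2 alignment of read pairs (build mm39) and featureCounts, both run by the authors in Galaxy, gave the deposited raw counts per gene symbol. The deposited FPKM values cover the same 41079 genes. Tool versions, annotation, the strand option and the treatment of reads that fit several genes are not given in the sources used here. Per the values, each FPKM was the count divided by a gene constant and a library constant, and these gene lengths differed from the annotated exon lengths for some members, which alters the order of levels between genes.

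Conditions and replicate numbers came from the labels. Counts were filtered with filterByExpr, scaled by TMM and tested with edgeR 4.0.16 (quasi-likelihood, condition alone) in R 4.3.3, with Benjamini-Hochberg adjustment over 14618 genes and a threshold of 0.05. CPM used the same scaling. The script was tested on simulated data. DESeq2 1.42.0, limma 3.58.1 on log2(FPKM + 1) and log2(FPKM + 0.1), other scalings and filters, the replicate number as a block, and each library left out were alternatives. The receptor and ligand shares from CPM per kilobase and the share called among genes of at least 10 CPM were added after the data had been seen. Gene positions and exon overlaps came from GENCODE M39 on GRCm39, which held 35087 of the symbols.

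The members and lists were chosen with earlier results of these data known. All 10 members were named. Of the listed pathway genes, those that passed with a mean of at least 1 CPM were named, and at most 2 of a role that did not, with the exception of genes too low to test. The 5 genes most like Notch4 were taken among tested genes with a mean of at least 1 CPM, with 0.1 added before the log2. The tables held 0 columns of other samples. Some listed genes and sequences are counted but not reported here by name.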

Additional observations from a re-analysis of the deposited data

How the results depend on the processing

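No result changed its direction while called in any alternative. The genes called higher, 2142 in the analysis reported, were 1603 to 2591 with 1 library left out and 1176 with limma on log2(FPKM + 1) for genes of at least 1 FPKM, where 2 of the members were called higher in place of 4, since Jag2 and Hes1 were under that minimum and not tested. The genes called lower, 2218, were 1646 to 2643 with 1 library left out. The members called lower, 1 in the analysis reported, were 2 without a filter, with DESeq2 and with the replicate block, and 1 to 3 with 1 library left out: 2 without control library 3, where Notch2 joined Rbpj, and 3 without optimized library 1, where Jag1 did so too. The pathway genes called lower, 11, were 6 to 12 with 1 library left out, and those called higher, 14, were 10 to 14 over all alternatives. With library size as the only scaling the median of all genes shifted by -0.13 on the log2 scale, and 32.3% of the calls were higher in place of 49.1%. On the FPKM scales the median shifted by -0.14 to -0.13 and this share was 28.4 to 31.3%. The cause was not tested. In the order of levels, 8 of 10 members kept their place in each condition with any 1 library left out, but which 8 these were depended on the library. With CPM per kilobase of exons 5 members kept their place in the control and 6 in the optimized libraries.

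The replicate numbers are shared by the conditions. Deviations of same-numbered libraries correlated at 0.40, -0.034 and 0.24, and control libraries 2 and 3 did not correlate best with their own number. With so few libraries these correlations cannot decide whether same-numbered libraries were paired, and pairing was not assumed. With the replicate block 2401 genes were higher and 2523 lower. Depth limits Notch3, the low targets and the control level of Notch4 and Hes1.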
